A study of Mus musculus with 8 samples.

Results

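The genes described here are 29 genes of cholesterol synthesis and its control by the transcription factor SREBP2, chosen by symbol from a fixed list. All 29 were found among the 45777 genes of the expression table, and all 29 passed the filter on low counts, which left 17644 genes for testing. The cells were neural stem cells from the subventricular zone of mice, the germinal layer beside the lateral ventricle. The deficient animals carried an S1pr1 deletion, which removes a receptor for the lipid sphingosine-1-phosphate, and the controls were WT. Cells of each genotype were given high-density lipoprotein that lacked apolipoprotein M (ApoM-HDL) or carried it (ApoM+HDL), apolipoprotein M being the protein that binds sphingosine-1-phosphate on these particles. The strain, age and sex of the mice, the Cre line or other means of deletion, the dose and the time of treatment are unstated in the sources used here.

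The table names its 8 libraries by a code and a number, with 2 libraries for each of the codes GH, GV, CH and CV. The 4 libraries whose code begins with C were read as control, because C is the initial of that group. The 4 libraries whose code begins with G were read as S1PR1-deficient by elimination. No source used here says which of the lipoprotein preparations H and V stand for, so both are given as letters and no result below is assigned to a preparation. Differences are given as GH or GV against CH or CV, and as H against V. Nothing says that the 2 libraries of a code came from separate cultures or animals, so the p-values measure only the spread between these libraries, which may be technical.

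The libraries held between 39619305 and 45698186 counted reads. S1pr1 itself had 23.2 and 21.2 CPM (a gene's reads relative to the library's TMM-scaled total) in the GH libraries, 22.2 and 22.4 CPM in the GV libraries, 25.4 and 23.2 CPM in the CH libraries, and 20.7 and 16 CPM in the CV libraries. The G and C libraries overlapped, and the log2 difference of G against C over both preparations was 0.08 ± 0.08 (SE; adjusted p = 0.57, edgeR). In CH against CV, within the control genotype, it was 0.41 ± 0.12 (adjusted p = 0.043). The S1pr1 count thus did not show the reading of G as deficient and C as control, and which part of the gene was deleted is not given in the sources used here. The libraries are called by their codes below, and every direction between G and C rests on that unchecked reading. Markers of neural stem cells were present in every library, with all 15 genes of that list tested and a summed level of 5804 to 6183 CPM in G libraries and 6583 to 6611 CPM in C libraries. Of 8 microglial and of 7 mural and fibroblast markers, 1 each passed the filter on low counts, and neither exceeded 0.6 CPM in any library. The other markers of these lists fell below the filter, with Aif1, Csf1r, Itgam, C1qa, Pdgfrb, Col1a2 and Lum at 0 reads in all 8 libraries. The 2 CV libraries stood apart on the first principal component of log2 CPM, which held 20.9% of the variance, and stood at opposite ends of the second, which held 17%.

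Cells make cholesterol from acetyl-CoA by way of mevalonate, isopentenyl pyrophosphate, farnesyl pyrophosphate, squalene and lanosterol. When sterols are low in the endoplasmic reticulum, the escort protein SCAP carries SREBP2 to the Golgi, where it is cut and released to switch on most enzymes of the route, and INSIG proteins hold SCAP back when sterols are high. High-density lipoprotein can take up cholesterol from cells or bring it to them, and neural progenitors use both isoprenoids and sterols as they divide.

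SREBP2 target promoters are known for a sterol regulatory element beside CCAAT boxes, which bind NF-Y, and GC boxes, which bind Sp1. Promoter sequences for the mouse build GRCm38.p6 from RefSeq matched 24 of the 29 members, with no entry for Fdft1, Fdps, Npc1, Sqle and Stard4. The 250 bases before each annotated start were searched on both strands for TCACNCCAC as the sterol regulatory element, CCAAT and GGGCGG, each on its own, so matches of different motifs may overlap. CCAAT or its opposite strand ATTGG stood before 22 of the 24 members (91.67%), against 37.49% of all 27025 genes in the table. GGGCGG or CCGCCC stood before 20 of the 24 (83.33%), against 35.36% of all genes. TCACNCCAC stood before 1 member, Hmgcs1, against 1.22% of all genes. The set of all genes was not matched to the members for expression, and a gene counted if any of its windows matched. A match is a run of letters and not a measured binding site, and no match says only that these letters are not in this window. The windows of 5 genes are printed below. These genes were picked because they moved in opposite directions between the libraries while all having matches to CCAAT and to GGGCGG. The pick used these same data, so it is no result about the motifs. Of the 5, only Hmgcs1 held a match to TCACNCCAC. Sterol regulatory elements with other letters were not searched for. Capitals mark matches to CCAAT and to TCACNCCAC on either strand. Hmgcs1 lies at chr13:119690101-119690350 on the plus strand, Cyp51 at chr5:4104698-4104947 on the minus strand, Sc5d at chr9:42264301-42264550 on the minus strand, Mvk at chr5:114444019-114444268 on the plus strand and Srebf2 at chr15:82147019-82147268 on the plus strand. In Hmgcs1 the match to TCACNCCAC begins 137 bases before the start, between CCAAT boxes at 176 and 45 bases before the start. Mvk has 5 CCAAT boxes and Srebf2, Cyp51 and Sc5d have 1 each.
Hmgcs1: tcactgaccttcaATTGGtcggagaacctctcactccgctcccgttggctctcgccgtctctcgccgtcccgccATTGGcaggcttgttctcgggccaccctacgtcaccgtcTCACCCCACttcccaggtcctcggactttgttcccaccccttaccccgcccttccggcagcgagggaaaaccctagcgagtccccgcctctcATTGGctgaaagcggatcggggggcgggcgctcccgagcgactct
Cyp51: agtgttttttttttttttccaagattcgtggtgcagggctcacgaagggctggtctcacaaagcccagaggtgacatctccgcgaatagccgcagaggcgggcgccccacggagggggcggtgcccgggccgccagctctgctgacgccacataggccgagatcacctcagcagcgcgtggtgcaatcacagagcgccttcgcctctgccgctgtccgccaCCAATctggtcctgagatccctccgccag
Sc5d: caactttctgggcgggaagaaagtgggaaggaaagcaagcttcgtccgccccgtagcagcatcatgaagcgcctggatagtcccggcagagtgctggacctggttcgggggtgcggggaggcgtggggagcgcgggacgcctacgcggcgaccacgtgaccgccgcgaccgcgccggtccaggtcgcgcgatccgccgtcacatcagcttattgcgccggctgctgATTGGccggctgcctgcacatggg
Mvk: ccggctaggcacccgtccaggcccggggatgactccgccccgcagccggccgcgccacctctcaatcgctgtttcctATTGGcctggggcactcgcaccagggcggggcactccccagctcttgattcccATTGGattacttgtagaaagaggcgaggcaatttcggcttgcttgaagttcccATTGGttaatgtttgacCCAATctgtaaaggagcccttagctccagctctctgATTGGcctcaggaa
Srebf2: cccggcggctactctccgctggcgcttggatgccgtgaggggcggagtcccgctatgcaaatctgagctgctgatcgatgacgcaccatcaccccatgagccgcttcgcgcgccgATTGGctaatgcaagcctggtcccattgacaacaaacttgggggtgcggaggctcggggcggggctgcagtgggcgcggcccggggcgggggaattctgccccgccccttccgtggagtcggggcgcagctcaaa

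Per kilobase of exon, the members ranged from 5.2 CPM per kilobase for Soat1, which esterifies cholesterol for storage, to 350.2 for Hmgcs1, which makes HMG-CoA. Fdps, the farnesyl pyrophosphate synthase, followed at 285.8 CPM per kilobase, Msmo1, a sterol C4 demethylating oxidase, at 189.6, Insig1 at 171.3 and Sqle, the squalene epoxidase, at 126.5. Insig2, the other INSIG gene, stood near the bottom at 7.5 CPM per kilobase. Over the 8 libraries, the highest value of a member was between 1.1 and 1.49 times its lowest, so every difference below is small. The plot of each member's level by library shows which libraries depart from the mean.

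**Figure D1:**
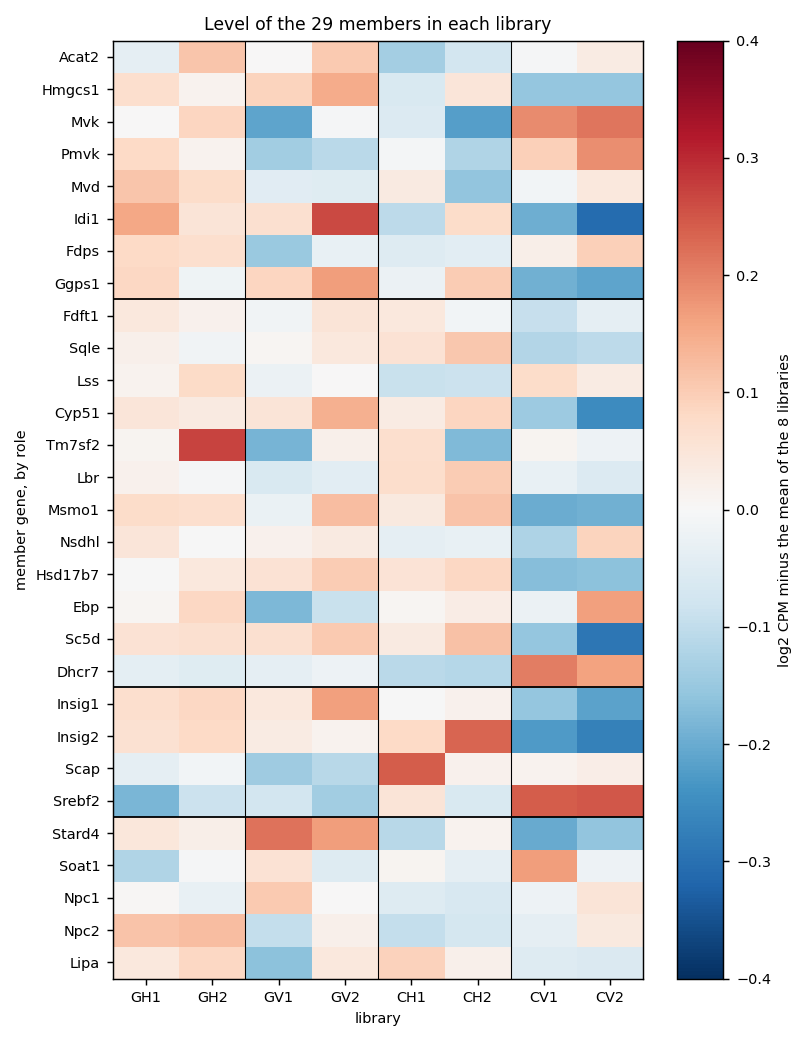
Level of the 29 members (rows, grouped by role) in the 8 libraries (columns), as log2 CPM minus the mean of the 8 libraries (colour). The CV columns stand apart, with Idi1, Cyp51, Sc5d, Insig1 and Insig2 low and Mvk, Dhcr7 and Srebf2 high.

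In 12 of the 29 members both CV libraries lay below the other 6, and in 4 both lay above. Over all genes tested, 13.4% had both CV libraries below and 14.2% had both above. In GV against CV, 10 members were called higher and 4 lower at an adjusted p below 0.05, where 11.6% of all genes tested were called higher and 13.4% lower. In CH against CV, 7 members were called higher and 3 lower, where 5.68% of all genes were called higher and 4.99% lower. The members called higher in GV against CV were 3 of 8 genes up to the farnesyl and geranylgeranyl step, 4 of 12 from squalene to cholesterol, both INSIG genes and Stard4, and those called lower were Mvk, Pmvk, Dhcr7 and Srebf2. These comparisons share the CV libraries, so their values for a member are not independent. The median log2 difference over the members was 0.04 in GV against CV and 0.08 in CH against CV, and over all genes tested it was -0.02 in GV against CV and -0.01 in CH against CV. In each of the 2 comparisons 15 members had a positive and 14 a negative log2 difference. Single libraries decide part of these counts. Fewer members were called in GV against CV and in CH against CV when the first or the second CV library was left out. Fewer were also called in CH against CV without the second CH library or without either GH library. Without the second CV library, fewer of all genes were called as well in both comparisons. The drop is therefore not particular to the members. In these fits the called members kept the direction of their difference.

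The split ran with base composition. Members called higher in GV against CV had transcripts of 40.1% to 48.2% GC, and those called lower had 52.8% to 57.9%. Over the 15672 tested genes with a GC value, Spearman's rho between the log2 difference and GC was -0.53 in GV against CV and -0.41 in CH against CV, and over the 29 members it was -0.74 in GV against CV and -0.65 in CH against CV, as descriptions in which all genes share the same libraries. The third of genes with the lowest GC had a median log2 difference of 0.20 in GV against CV and the third with the highest GC had -0.22. With each library's GC trend removed, an alternative chosen after seeing the data, 5 members were called in GV against CV. Cyp51, Insig1 and Stard4 were higher and Lbr and Soat1 lower, where 3.43% of all genes were called higher and 9.88% lower. In CH against CV 5 members were called. Cyp51, Insig2, Scap and Sqle were higher and Dhcr7 lower, where 3.36% of all genes were called higher and 4.16% lower. Of these members, 3 in GV against CV and 4 in CH against CV were also called without the removal. In GH against CH the same rho over all genes was -0.06. What part the GC relation has in the members' values was not tested beyond this removal.

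**Figure D2:**
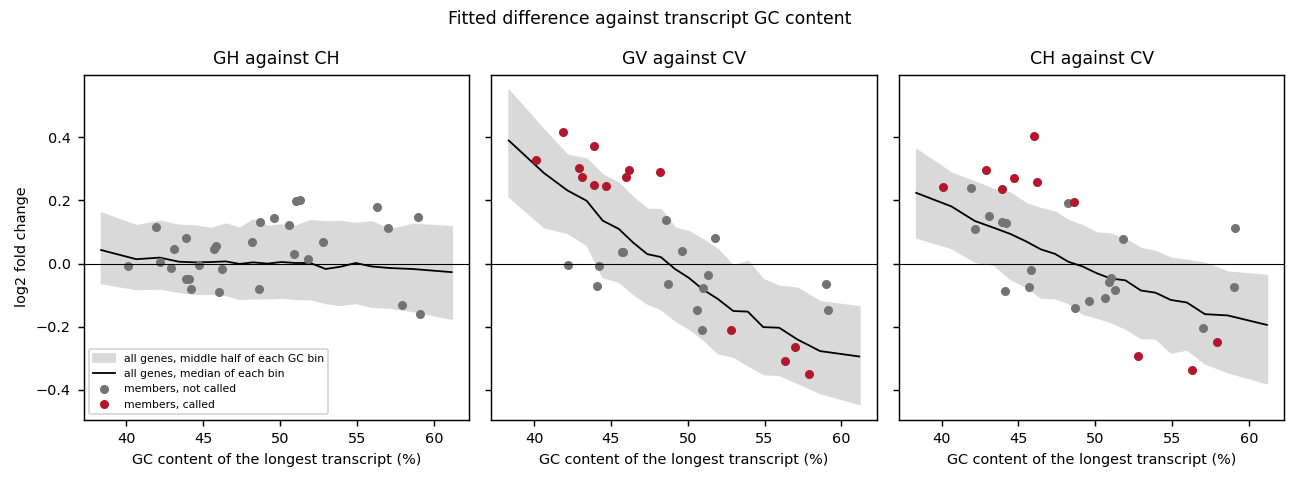
Log2 fold change (vertical axis) against GC content of the longest transcript (horizontal axis, %), for all tested genes in GC bins (line: median; grey band: interquartile range) and for the 29 members (points; red: called). In GV against CV and CH against CV the members fall along the slope of all genes, and in GH against CH that slope is close to flat.

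Of the 8 genes from acetyl-CoA to farnesyl and geranylgeranyl pyrophosphate, 3 were called higher and 2 lower in GV against CV. Hmgcs1 had 1274.1 and 1228.4 CPM in the GH libraries, 1292.1 and 1348.7 CPM in the GV libraries, 1166.6 and 1258.4 CPM in the CH libraries, and 1092.9 and 1092.8 CPM in the CV libraries. Both CV libraries were below all others. Hmgcs1 was higher in GV against CV, with a log2 fold change of 0.27 ± 0.05 (SE; adjusted p = 0.0034), which was 0.04 ± 0.04 (adjusted p = 0.59) with the GC trend removed.

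Idi1, which isomerizes isopentenyl pyrophosphate, had 259.1 and 241.3 CPM in the GH libraries, 243.2 and 279.8 CPM in the GV libraries, 216.5 and 244.9 CPM in the CH libraries, and 203.1 and 188.2 CPM in the CV libraries. The CV libraries were lowest, and the GV and CH libraries overlapped. Its log2 fold change in GV against CV, 0.42 ± 0.08 (SE; adjusted p = 0.0031), exceeded that of the other members, and with the GC trend removed it was 0.14 ± 0.07 (adjusted p = 0.18). Ggps1, which makes the geranylgeranyl group for protein prenylation, had 73.9 and 69 CPM in the GH libraries, 74 and 78.4 CPM in the GV libraries, 68.7 and 74.9 CPM in the CH libraries, and 61.1 and 60.3 CPM in the CV libraries. Again both CV libraries were below all others. Ggps1 was higher by 0.33 ± 0.07 (adjusted p = 0.0052) in GV against CV and by 0.24 ± 0.07 (adjusted p = 0.045) in CH against CV on the log2 scale. After removal of the GC trend, the Ggps1 values were -0.02 ± 0.06 (adjusted p = 0.9) in GV against CV and 0.04 ± 0.06 (adjusted p = 0.77) in CH against CV.

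Mvk, the mevalonate kinase, went the other way. It had 83.4 and 88.5 CPM in the GH libraries, 72 and 83.2 CPM in the GV libraries, 80.3 and 71.6 CPM in the CH libraries, and 95.1 and 96.8 CPM in the CV libraries. Both CV libraries were above all others. Its log2 fold change was -0.31 ± 0.08 (adjusted p = 0.015) in GV against CV and -0.34 ± 0.08 (adjusted p = 0.022) in CH against CV, and -0.13 ± 0.07 (adjusted p = 0.23) and -0.22 ± 0.07 (adjusted p = 0.06) with the GC trend removed. Pmvk, the kinase of the next step, had 65 and 62 CPM in the GH libraries, 55.8 and 57 CPM in the GV libraries, 61.1 and 56.6 CPM in the CH libraries, and 65.7 and 69.9 CPM in the CV libraries. GV and CV did not overlap, and GH lay between them. Pmvk was lower in GV against CV by a log2 fold change of -0.26 ± 0.07 (adjusted p = 0.015), and its value with the GC trend removed was -0.07 ± 0.06 (adjusted p = 0.48). Acat2, Mvd and Fdps, which complete this stretch, were called in none of the 7 comparisons by the main test. Mvd, the mevalonate pyrophosphate decarboxylase, was called higher in G against C with the GC trend removed, at 0.16 ± 0.04 (adjusted p = 0.014). Acat2 reads may be shared with its near-identical neighbour Acat3, and how the counting treated them is not given in the sources used here. The same holds for Idi1 and its paralog Idi2. Exons of 9 members overlap another gene, among them Hmgcs1, Idi1, Cyp51 and Scap on the opposite strand, and the strand setting of the counting is not given in the sources used here.

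Of the 12 genes from squalene to cholesterol, 4 were called higher and 1 lower in GV against CV, and 5 higher and 1 lower in CH against CV. Sqle had 353.4 and 344.7 CPM in the GH libraries, 350.4 and 359 CPM in the GV libraries, 362.4 and 375.4 CPM in the CH libraries, and 320.8 and 324 CPM in the CV libraries. The CV libraries lay below the other 6. Sqle was called higher in CH against CV, at 0.19 ± 0.05 (SE, log2; adjusted p = 0.038), and kept 0.17 ± 0.05 (adjusted p = 0.038) with the GC trend removed.

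Cyp51, the lanosterol 14-alpha demethylase, had 479.6 and 475.9 CPM in the GH libraries, 481.1 and 511.6 CPM in the GV libraries, 474.4 and 491.9 CPM in the CH libraries, and 419.3 and 389.6 CPM in the CV libraries. CH overlapped with both GH and GV, GH lay below GV, and both CV libraries were below the other 6. It was higher in GV against CV by 0.30 ± 0.06 (adjusted p = 0.0034) and in CH against CV by 0.26 ± 0.06 (adjusted p = 0.018) on the log2 scale. It was still called in both after the GC trend was removed, at 0.18 ± 0.05 (adjusted p = 0.027) in GV against CV and 0.19 ± 0.05 (adjusted p = 0.038) in CH against CV. Msmo1 had 406.4 and 404.7 CPM in the GH libraries, 379.4 and 420.8 CPM in the GV libraries, 396.5 and 417.5 CPM in the CH libraries, and 336.3 and 338.3 CPM in the CV libraries. Its levels in GH, GV and CH also overlapped above those in CV. The log2 fold change of Msmo1 was 0.25 ± 0.06 (adjusted p = 0.011) in GV against CV and 0.27 ± 0.06 (adjusted p = 0.017) in CH against CV, and with the GC trend removed 0.07 ± 0.05 (adjusted p = 0.42) and 0.17 ± 0.05 (adjusted p = 0.075).

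Hsd17b7, the sterol 3-ketoreductase, had 73.8 and 76.1 CPM in the GH libraries, 76.9 and 79.3 CPM in the GV libraries, 76.7 and 78.2 CPM in the CH libraries, and 65.6 and 65.9 CPM in the CV libraries. Sc5d, the sterol C5 desaturase, had 111.3 and 111.8 CPM in the GH libraries, 111.6 and 114.9 CPM in the GV libraries, 109.6 and 115.8 CPM in the CH libraries, and 96 and 87.5 CPM in the CV libraries. In both genes CV stood below the other 6 libraries. Hsd17b7 was higher by 0.25 ± 0.06 (adjusted p = 0.01) in GV against CV and 0.24 ± 0.06 (adjusted p = 0.03) in CH against CV on the log2 scale. Sc5d was higher by 0.30 ± 0.06 (adjusted p = 0.0047) in GV against CV and 0.30 ± 0.06 (adjusted p = 0.014) in CH against CV. Neither gene was called with the GC trend removed, with 0.04 ± 0.06 (adjusted p = 0.68) and 0.11 ± 0.06 (adjusted p = 0.25) for Hsd17b7 and 0.07 ± 0.06 (adjusted p = 0.49) and 0.15 ± 0.06 (adjusted p = 0.1) for Sc5d in the same order.

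Dhcr7, which reduces 7-dehydrocholesterol to cholesterol in the last step, had 94.5 and 93.9 CPM in the GH libraries, 94.6 and 95.7 CPM in the GV libraries, 90.1 and 89.6 CPM in the CH libraries, and 111.8 and 108.4 CPM in the CV libraries. Both CV libraries were above the other 6, whose values lay within 89.6 to 95.7 CPM. Dhcr7 was lower in GV against CV, at -0.21 ± 0.06 (adjusted p = 0.017), and in CH against CV, at -0.29 ± 0.06 (adjusted p = 0.0087). After removal of the GC trend these were -0.12 ± 0.05 (adjusted p = 0.16) and -0.23 ± 0.05 (adjusted p = 0.016). Fdft1, Lss, Tm7sf2, Lbr, Nsdhl and Ebp were called in none of the 7 comparisons by the main test. Fdft1, the squalene synthase, varied by no more than 1.1 times over the 8 libraries.

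**Figure D3:**
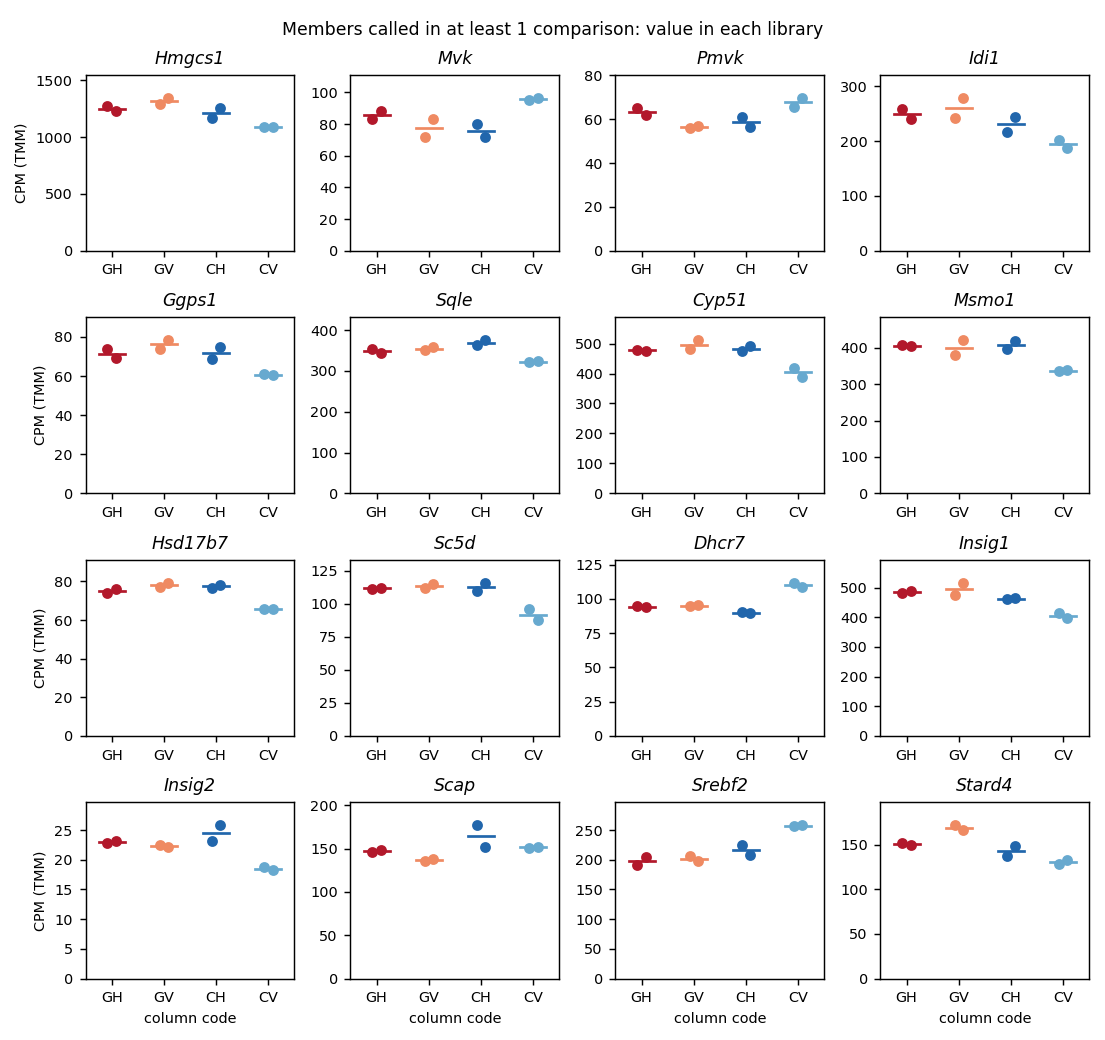
CPM (vertical axis, from 0) of the 16 members called in at least 1 comparison, in the 2 libraries of each code (points) with their mean (line). The CV points lie lowest for Cyp51, Msmo1, Hsd17b7 and Sc5d and highest for Mvk, Dhcr7 and Srebf2.

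Of the 4 genes that sense sterols, Insig1 and Insig2 were called higher and Srebf2 lower in GV against CV, Insig2 higher and Srebf2 lower in CH against CV, and 0 were called in GH against CH and in GH against GV. Srebf2, which encodes SREBP2, had 191.6 and 204.8 CPM in the GH libraries, 206.7 and 197.2 CPM in the GV libraries, 225.5 and 208.4 CPM in the CH libraries, and 257.1 and 258 CPM in the CV libraries. All 4 G libraries lay below all 4 C libraries, and CV was highest. Srebf2 was lower in GV against CV, at -0.35 ± 0.06 on the log2 scale (SE; adjusted p = 0.0019), in CH against CV, at -0.25 ± 0.06 (adjusted p = 0.027), and in G against C over both preparations, at -0.24 ± 0.04 (adjusted p = 0.0031). G against C was still called with the GC trend removed, at -0.13 ± 0.04 (adjusted p = 0.025). The other calls were lost, with GV against CV at -0.15 ± 0.05 (adjusted p = 0.073) and CH against CV at -0.11 ± 0.05 (adjusted p = 0.23).

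Insig1, itself an SREBP target and one of the brakes, had 482.7 and 487.4 CPM in the GH libraries, 474.4 and 516.4 CPM in the GV libraries, 460 and 465.7 CPM in the CH libraries, and 413.3 and 396.8 CPM in the CV libraries. All 4 G libraries lay above all 4 C libraries, with GV at 474.4 CPM and CH at 465.7 CPM where they came nearest. Insig1 was higher in GV against CV, at 0.29 ± 0.06 (adjusted p = 0.0034), and in G against C over both preparations, at 0.18 ± 0.04 (adjusted p = 0.0097). With the GC trend removed both were still called, at 0.24 ± 0.05 (adjusted p = 0.0061) and 0.15 ± 0.04 (adjusted p = 0.011). Insig2 had 22.9 and 23.2 CPM in the GH libraries, 22.5 and 22.2 CPM in the GV libraries, 23.2 and 25.8 CPM in the CH libraries, and 18.8 and 18.2 CPM in the CV libraries. GH met CH at 23.2 CPM, and both CV libraries were below the other 6. Insig2 was higher in CH against CV, at 0.41 ± 0.09 (adjusted p = 0.014), and in GV against CV, at 0.27 ± 0.09 (adjusted p = 0.036), and with the GC trend removed CH against CV was called, at 0.33 ± 0.08 (adjusted p = 0.025), and GV against CV was 0.15 ± 0.08 (adjusted p = 0.26).

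Scap, the escort of SREBP2, had 145.8 and 148.3 CPM in the GH libraries, 135.5 and 138.5 CPM in the GV libraries, 177 and 151.4 CPM in the CH libraries, and 151.1 and 152.5 CPM in the CV libraries. The first CH library stood far above the other 7. Scap was lower in G against C over both preparations, at -0.15 ± 0.05 (adjusted p = 0.049), and at -0.03 ± 0.04 (adjusted p = 0.61) with the GC trend removed. That removal gave calls the main test did not make, in CH against CV, at 0.27 ± 0.05 (adjusted p = 0.0072, against 0.35 in the main test), and in H against V over both genotypes, at 0.16 ± 0.04 (adjusted p = 0.021).

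Of the 5 genes for transport, esterification and lysosomal release, only Stard4 was called, among the 7 comparisons. Stard4, a carrier of sterols between membranes, had 152.4 and 150.1 CPM in the GH libraries, 171.7 and 166 CPM in the GV libraries, 136.8 and 149 CPM in the CH libraries, and 128.5 and 132.5 CPM in the CV libraries. All 4 G libraries lay above all 4 C libraries, with GH at 150.1 CPM and CH at 149 CPM where they came nearest. It was higher in GV against CV, at 0.37 ± 0.06 (adjusted p = 0.0012), and in G against C over both preparations, at 0.23 ± 0.04 (adjusted p = 0.0039). With the GC trend removed both were still called, at 0.17 ± 0.05 (adjusted p = 0.044) and 0.12 ± 0.04 (adjusted p = 0.044). With the trend of transcript length removed as well, neither was called, at 0.12 ± 0.05 (adjusted p = 0.098) and 0.10 ± 0.03 (adjusted p = 0.062). Soat1, Lipa, the lysosomal acid lipase, and Npc1 and Npc2, which move cholesterol out of lysosomes, were called in none of the 7 comparisons by the main test. Soat1 was called lower with the GC trend removed in GV against CV, at -0.27 ± 0.08 (adjusted p = 0.038), as was the sterol reductase gene Lbr, at -0.20 ± 0.05 (adjusted p = 0.018).

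**Figure D4:**
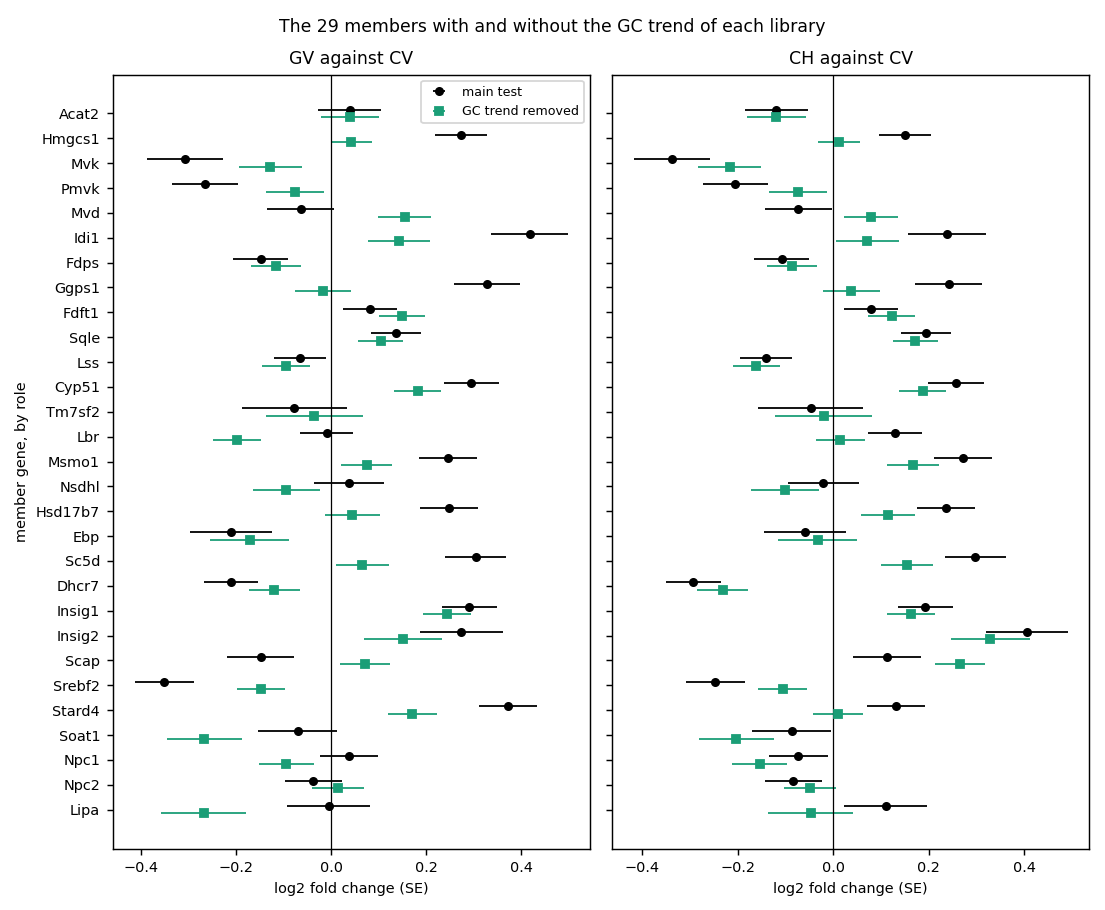
Log2 fold change with its SE (horizontal axis) of the 29 members in GV against CV and CH against CV, from the main test (black) and with each library's GC trend removed (green). Green values lie nearer 0 for Ggps1, Hmgcs1 and Idi1, while Insig1 in GV against CV stays apart from 0, at 0.24.

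Removing the length trend together with the GC trend, also chosen after seeing the data, gave another set of calls. In GV against CV, Cyp51, Insig1 and Mvd were called higher and Dhcr7, Lbr, Lipa, Lss, Soat1 and Srebf2 lower. In CH against CV, Cyp51, Insig1, Insig2, Sc5d, Scap and Sqle were called higher and Dhcr7, Lss and Mvk lower. In G against C over both preparations, Insig1 and Mvd were called higher and Lbr, Soat1 and Srebf2 lower. Without the share over all genes beside them, the lengths of these lists are no result about the members. Insig1 was called by the main test and after both removals in GV against CV and in G against C. With both trends removed, edgeR gave 0.22 ± 0.04 (adjusted p = 0.0019) and 0.15 ± 0.03 (adjusted p = 0.0024) in that order. Cyp51 in GV against CV, Srebf2 in G against C, and Cyp51, Dhcr7, Insig2 and Sqle in CH against CV were also called each time. The second removal contains the first, so the 2 are not separate checks. In the main test, these CH against CV calls were lost without the second CH library. Those of Cyp51 in GV against CV and Insig1 in G against C were lost without the second CV library.

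For genotype, the 14 members above were called under V. In GH against CH, under H, 0 of 29 were called by edgeR, where 0.759% of all genes were called higher and 1.05% lower. At an unadjusted p below 0.05, 4 members of 29 passed in GH against CH, as did 2401 of all 17644 genes, a like share, and DESeq2 called 1 member. The members' log2 differences in GH against CH ran between -0.16 and 0.20, and the highest was Npc2, which binds cholesterol in the lysosome lumen, at 0.20 ± 0.06 (SE; adjusted p = 0.13). It was called with the GC and length trends removed, at 0.21 ± 0.05 (adjusted p = 0.021). Npc2 had 181.2 and 182.7 CPM in the GH libraries and 156.9 and 159.6 CPM in the CH libraries, which did not overlap. G against C over both preparations is the mean of GH against CH and GV against CV. In it, 7 members were called higher (Hmgcs1, Idi1, Ggps1, Cyp51, Sc5d, Insig1 and Stard4) and 2 lower (Scap and Srebf2). Of all genes, 9.03% were called higher and 10.2% lower. In GH against CH, where none was called, Hmgcs1 had 0.045, Idi1 0.117, Ggps1 -0.008, Cyp51 -0.016 and Sc5d -0.015 on the log2 scale. There Insig1 had 0.067, Stard4 0.082, Scap -0.159 and Srebf2 -0.131. With the GC trend removed 5 members were called, Insig1, Mvd and Stard4 higher and Lbr and Srebf2 lower. After that removal 4.73% of all genes were called higher and 9.75% lower. Of the 5 members, 3 were also called without the removal. In the main test, without GC removal, fewer members were called on leaving out the first CH, the second CV, the second GV or either GH library.

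For the preparations, GH against GV called 0 of 29 members by edgeR, with 4 at an unadjusted p below 0.05, as for 2607 of all 17644 genes, and 0 by DESeq2, where 1.14% of all genes were called higher and 0.136% lower. The members' log2 differences there ran between -0.16 and 0.23. In H against V over both genotypes 0 members were called by edgeR, where 1.43% of all genes were called higher and 1.75% lower. At an unadjusted p below 0.05, 8 members passed, as did 3421 of all 17644 genes. DESeq2 called 3 members, and it also called more of all genes than edgeR did. A p that misses the threshold does not show that the levels were alike.

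**Figure D5:**
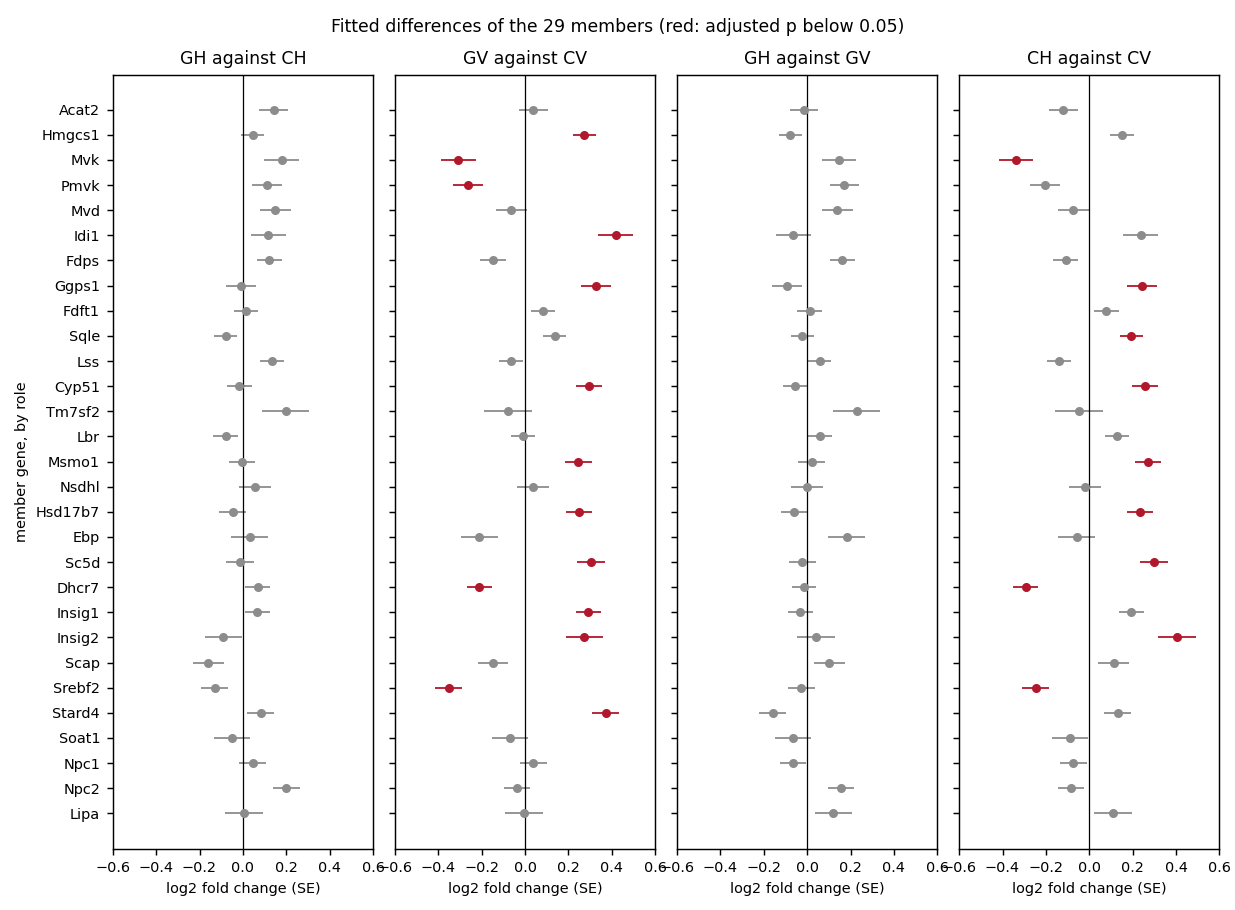
Log2 fold change with its SE (horizontal axis) of the 29 members in 4 comparisons (red: adjusted p below 0.05). In GV against CV 14 members and in CH against CV 10 members are red, and in GH against CH and GH against GV there are 0.

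The test of whether H against V differed between the genotypes called 3 members, where 3.93% of all genes were called higher and 3.41% lower. Mvk had an interaction of 0.49 ± 0.11 on the log2 scale (SE; adjusted p = 0.027), with 0.15 ± 0.08 in GH against GV and -0.34 ± 0.08 in CH against CV. Pmvk had 0.38 ± 0.10 (adjusted p = 0.039) and Cyp51 had -0.31 ± 0.08 (adjusted p = 0.041). With the GC trend removed 0 members were called by edgeR. These calls were also lost on leaving out either CV library, either GH library or the second CH library. DESeq2 called 14 members, but it also called more of all genes than the 1296 that edgeR called. Its 14 therefore cannot be set against the shares above.

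Other genes of the pathway were called in both directions. Each count below stands against 11.6% of all genes called higher and 13.4% lower in GV against CV. Values with the GC trend removed are given here only for the members. For these other genes and the cell type markers below, the part of the GC relation was not tested. Of 10 genes for SREBP processing and sterol-regulated degradation, 3 were called higher and 2 lower in GV against CV. Srebf1, which encodes SREBP1, had 40.63 and 45.15 CPM in the GH libraries, 34.28 and 40.88 CPM in the GV libraries, 63.52 and 54.51 CPM in the CH libraries, and 70.05 and 66.57 CPM in the CV libraries. All 4 G libraries lay below all 4 C libraries. Srebf1 was lower in GH against CH, at -0.46 ± 0.10 (adjusted p = 0.038), and in GV against CV, at -0.86 ± 0.10 (adjusted p = 0.00021). Mbtps2, the site-2 protease that frees SREBP, was higher in GV against CV, at 0.50 ± 0.08 (adjusted p = 0.0013), and in CH against CV, at 0.47 ± 0.08 (adjusted p = 0.0053).

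Of 14 other known SREBP-responsive genes, 1 was called higher and 2 lower in GV against CV, no more than the share over all genes for higher and close to it for lower. Fasn, the fatty acid synthase, was lower in GV against CV, at -0.41 ± 0.06 (adjusted p = 8e-04), and in CH against CV, at -0.38 ± 0.06 (adjusted p = 0.004). Acss2, which makes acetyl-CoA from acetate, was called higher in GH against CH, at 0.34 ± 0.07 (adjusted p = 0.036). Of 12 isoprenoid genes 3 were called higher and 1 lower in GV against CV, of 12 tested genes for sterol transfer and ester turnover 4 higher and 1 lower, of 5 tested oxysterol enzymes 0 and 0, and of 4 tested electron donors 0 and 2.

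Marker lists of cell types also differed between the codes. Of 15 neural stem cell markers, 2 were called higher and 6 lower in GV against CV, and 0 higher and 4 lower in CH against CV. Oligodendrocyte lineage markers, 6 of 8 tested, summed to 1655 to 1677 CPM in GH, 1652 to 1704 CPM in GV, 1435 to 1528 CPM in CH and 1931 to 1955 CPM in CV libraries. Of these 6, 2 were called lower in GV against CV and 4 in CH against CV. Of 4 neuron markers tested, 2 were called higher in GV against CV (Map2 and Syt1) and 3 lower in CH against CV (Rbfox3, Snap25 and Syt1), and their list summed to 1177 to 1401 CPM in G and 1073 to 1234 CPM in C libraries. Of 7 neuroblast markers tested, 2 were called higher and 1 lower in GV against CV, and 1 lower in CH against CV. Mature astrocyte markers, 6 of 7 tested, summed to 489 to 523 CPM in G and 584 to 654 CPM in C libraries. That sum separated G from C, but the single markers were mixed. In G against C over both preparations, 2 were called higher (S100b and Slc1a2) and 1 lower (Aldh1l1), with a median log2 difference of -0.03. In GV against CV 1 was called higher and 1 lower. In bulk RNA, fewer cells of a type and less RNA per cell cannot be told apart. The part of these markers in the members' values was not tested.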

How the data were processed

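RNA-seq was made from 8 libraries, 2 for each code. Total RNA was depleted of ribosomal RNA and made into libraries with a kit that marks strand, per the labels' protocols. bcl2fastq 2.20.0, Trimmomatic, HISAT2 2.1.0, StringTie 2.1.3b and the build GRCm38 (mm10) are named in the submitters' processing notes. The deposited values used were read counts per gene, made by the authors, and the 16 FPKM and TPM columns were not used. Libraries held 39619305 to 45698186 counts.

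Genes were filtered with filterByExpr, scaled by TMM and tested with edgeR 4.0.16 (quasi-likelihood, R 4.3.3), with 1 mean per code, all 8 libraries, and Benjamini-Hochberg adjustment over 17644 genes. A gene was called at an adjusted p below 0.05. SE is the log2 fold change divided by the square root of F. The 29 members are all named. GC content came from the longest transcript of each gene. DESeq2 1.42.0, other scalings and filters, a replicate block, left-out libraries and, added after seeing the data, removal of GC and length trends were alternatives. The procedure was tested on simulated data. The members and lists were chosen with earlier results of these data known. Intervals and p-values cover the spread between these libraries.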

Additional observations from a re-analysis of the deposited data

Results flagged for a closer look

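Of 58 checks for a library far from the others of its genotype, 3 were positive, and chance gives about 1 in 20. Cyp51 in the 4 G libraries had a gap of 0.854 of the range, with the second GV library at 511.6 CPM. Sc5d in the 4 G libraries had a gap of 0.861, again with the second GV library high, at 114.9 CPM. Scap in the 4 C libraries had a gap of 0.946, with the first CH library at 177 CPM.

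The effect of H against V differed between G and C libraries, by the interaction test, for Mvk (0.486 on the log2 scale), Pmvk (0.377) and Cyp51 (-0.312). No cause was tested.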

How the results depend on the processing

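The member with the fewest reads in a library was Insig2, with 732 in the first CV library. Over 36 called results of single members, 600 alternative values kept the call in 434, lost it in 160 and changed sign in 6.

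In GH against CH, all genes called were 552 with no filter, 567 with DESeq2, 203 with the replicate block, 584 with the GC trend removed and 816 with GC and length trends removed, and 1 member was called with DESeq2 and 1 with both trends removed. In GV against CV, members called were 5 with the GC trend removed and 9 with both removed, and all genes 2086 and 2459. In G against C, 5 members were called with the replicate block, with the GC trend removed and with both removed. In GH against GV, all genes called were 575 with no filter, 509 at 1 CPM, 668 with DESeq2, 137 with the block, 31 with only the codes compared, 413 with the GC trend removed and 396 with only genes that have a GC value. In CH against CV, 5 members and 1179 genes were called with the GC trend removed. In H against V, all genes called were 1006 with no filter, 942 at 1 CPM, 1132 with DESeq2, 325 with the block, 1047 with the GC trend removed, 1114 with both removed and 949 with a GC value, and members 2 at 1 CPM, 3 with DESeq2, 3 with the GC trend removed, 4 with both removed and 1 with a GC value. For the interaction, members called were 7 with DESeq2's size factors, 11 with no filter, 9 at 1 CPM, 14 with DESeq2, 1 with the block, 0 with the GC trend removed and 9 with a GC value, and all genes 2022 with DESeq2, 588 with the GC trend removed and 692 with both removed. The genes tested were 26462 with no filter, 14004 at 1 CPM and 15672 with a trend removed or only genes with a GC value. Where no count over all genes stands beside it, a member count here is no result about the members. The cause was not tested.

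Leaving out 1 library at a time, where the lone library is assumed to vary like the other codes, members called ranged from 0 to 0 in GH against CH, 5 to 14 in GV against CV, 4 to 9 in G against C, 0 to 0 in GH against GV, 0 to 12 in CH against CV, 0 to 1 in H against V and 0 to 7 for the interaction. All genes called ranged from 45 to 415, 1950 to 4444, 1585 to 3391, 8 to 843, 255 to 2169, 96 to 1182 and 56 to 1450 in the same order. The sign changed for Ggps1 in GV against CV with the GC trend removed (-0.017) and with both removed (-0.063), Ggps1 in G against C (-0.027 and -0.048), Hsd17b7 in GV against CV (-0.001) and Sc5d in G against C (-0.004) with both removed, and S1pr1 in G against C without the second CV library (-0.011, within -0.011 to 0.175 over the left-out libraries).

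The replicate numbers were given by the codes, and whether they pair the libraries is not given in the sources used here. The correlation over genes of same-numbered libraries' deviations lay between -0.048 and 0.015. It cannot show that the libraries were unpaired, since a pairing that acts on few genes would hardly move it. With the replicate block, 14 members were called in GV against CV and 8 in CH against CV. The share over all genes is not given beside these counts, so they are no result about the members.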
